A study of Mus musculus with 6 samples.

Results

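Tlr7 and 9 other genes that detect nucleic acids, or serve those that do, were followed in white fat taken from beneath the skin of mice. They are the receptors Tlr3, Tlr7, Tlr8 and Tlr9, their chaperone Unc93b1, the helicases Ddx58, Ifih1 and Dhx58, the adaptor Mavs, and Zbp1. Each was taken by its exact row name, and all 10 were found among the 36144 gene rows of the deposited table. All 10 passed the filter of at least 1 TPM in at least 3 libraries. TPM is a length-corrected share of a library's transcripts, scaled to the same total in each library. The genes were chosen by their function and by their TPM in these same 6 libraries, with the difference between the groups in view, so their values in that contrast are a description and carry no test.

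The series holds 6 poly-A RNA sequencing libraries, 3 titled WT and 3 titled Tumor, and the titles call them biological replicates without naming animals, so p-values measure the spread between these samples only. The genotype label gives MSRA WT for the libraries titled WT and MSRA full-body KO for those titled Tumor, and all 6 share the treatment label of an orthotopic transplant, that is, cells placed in their organ of origin. The design text places pancreatic ductal adenocarcinoma cells in both kinds of host and tissue collection 4 to 5 weeks after surgery, while the series title names tumour-bearing mice and controls without a tumour. The sources used here do not give strain, age or sex. Directions below follow the titles, as Tumor minus WT. Title and genotype label coincide in all 6 libraries, so tumour and Msra genotype cannot be told apart in any difference below. Msra was still measured at 26.9 to 52.9 TPM in the libraries labelled knockout, against 51.1 to 59.1 TPM in the others. These values do not settle the genotype.

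Cells look for foreign or misplaced nucleic acids both in endosomes and in the cytosol. In endosomes, Tlr3 binds double-stranded RNA, Tlr7, with its close relative Tlr8, single-stranded RNA and its breakdown products, and Tlr9 DNA with unmethylated CpG. Unc93b1 carries these receptors out of the endoplasmic reticulum, and in fat they are best known from macrophages, dendritic cells and B cells. In the cytosol, Ddx58 (RIG-I) and Ifih1 (MDA5) bind viral-type RNA and signal through Mavs on mitochondria, Dhx58 (LGP2) modulates them, and Zbp1 binds left-handed Z-form nucleic acid. Several of these sensors are themselves induced by interferon.

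The libraries differed in cell content, and some of that difference followed the groups. WT replicate 3 and Tumor replicate 1 were poor in lymphoid transcripts, with B cell markers (9 genes) summing to 47.9 and 51.1 TPM, against 765 to 2364 TPM in the other 4 libraries. Macrophage markers (12 genes, none at 0) summed to 1868 to 2323 TPM (WT libraries) and to 2744 to 4449 TPM (Tumor libraries), without overlap. Lyz2 alone held 733 to 1234 TPM and 1401 to 2214 TPM of these sums, and their lack of overlap rests on it. It was 2167 of 3441 TPM in Tumor replicate 3 and 978.5 of 2259 TPM in WT replicate 2. Without it the sum of Tumor replicate 3 lies below that of WT replicate 2. Of the 12 genes 4 were higher without overlap, where 11.8% of all tested genes were so. The rest overlapped, and among them Mrc1 and Cd163 alone had negative log2 differences, of -0.14 and -0.06. Markers of plasmacytoid dendritic cells (8 genes, none at 0) summed to 163 to 366 TPM and 288 to 521 TPM, and those of conventional dendritic cells (7 genes, none at 0) to 45.8 to 71.5 TPM and 70.8 to 114 TPM. T cell markers (9 genes) summed to 76.1 to 1248 TPM and 162 to 1834 TPM. Adipocyte markers (10 genes) summed to 30310 to 55100 TPM and 12700 to 44840 TPM, and Adipoq, the adipocyte hormone, stood at 720.5 TPM or more in every library. Neutrophil markers summed to 21.2 to 374 TPM and 6.98 to 92.2 TPM, with Ly6g, Retnlg, Mpo and Camp at 0 in at least 1 library. Skeletal muscle markers (8 genes) summed to 13.1, 2575 and 9.35 TPM in the WT libraries and to 1800, 565 and 2269 TPM in the Tumor libraries, so muscle transcripts were far lower in WT replicates 1 and 3 than in the other 4 libraries, and their part in the results was not tested. The Y-linked genes Ddx3y, Eif2s3y, Kdm5d and Uty were measured in all 6 libraries, at 4.00 TPM or more each. In bulk tissue, fewer cells of a type and less RNA per cell cannot be told apart.

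Over the whole table, 0 of 14140 genes tested (0%) passed limma at an adjusted p of 0.05, in either direction, and 770 had an unadjusted p below 0.05. The lowest adjusted p in the table was 0.206. The median difference of all tested genes was 0.23 on the log2(TPM + 1) scale, and it was 0.04 with median-ratio factors. A difference of a member is therefore also given here relative to the 0.23.

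Tlr7 (chromosome X, 167304929 to 167330558, minus strand, GRCm38, GENCODE M21) was low in fat of the WT libraries and about 3 times as high in the Tumor libraries. It stood at 5.37, 3.73 and 3.68 TPM in WT replicates 1 to 3 and at 10.6, 11.2 and 16.7 TPM in Tumor replicates 1 to 3. The groups did not overlap, and the lowest Tumor library was the one poor in lymphoid transcripts. The means were 4.26 ± 0.960 and 12.8 ± 3.33 TPM (SD, n = 3), a 3.01-fold difference, or 1.38 on the log2(TPM + 1) scale (SE 0.26), which is 1.15 above the median of all genes. Of the 14140 tested genes, 83 had a larger difference, but Tlr7 was chosen with this contrast in view, so nothing is read from that place. The difference was 1.42 among the 4 lymphoid-rich libraries and 1.31 between the lymphoid-poor pair, WT replicate 3 and Tumor replicate 1. With the macrophage marker list as a covariate the difference was 1.38, and with the B cell list it was 1.34. The macrophage covariate is a mean of log2(TPM + 1) over its list, and Marco and Timd4 in it followed lymphoid content. Marco stood at 0.634 and 1.05 TPM in the lymphoid-poor pair and at 42.6 TPM or more elsewhere. Timd4 stood at 3.95 and 4.21 TPM there and at 38.1 TPM or more elsewhere. Values with this covariate are therefore not adjusted for macrophage content alone. Leaving out a library gave 1.19 to 1.53.

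Tlr8 (chromosome X, 167242696 to 167264329, minus strand) is the neighbour of Tlr7, 40599 bases away with 0 annotated genes between them, and it showed another pattern. It stood at 1.88, 0.778 and 4.31 TPM in the WT libraries and at 9.60, 1.83 and 0.919 TPM in the Tumor libraries. The highest value of each group was in its lymphoid-poor library, and the other 2 Tumor libraries lay within the WT range. The means were 2.32 ± 1.81 and 4.12 ± 4.77 TPM (SD, n = 3), with a log2 difference of 0.36 (SE 0.74). That difference was -0.37 without Tumor replicate 1, -0.02 without WT replicate 2, 0.87 without Tumor replicate 3 and 0.04 among the 4 lymphoid-rich libraries. Tumor replicate 1 held the most of 9 of the 12 macrophage markers, Cd68 and Adgre1 among them at 269 and 63.5 TPM. The other 3, Marco, Timd4 and Siglec1, were lowest there among the Tumor libraries. In the other libraries Cd68 stood at 59.2 to 105 TPM. The part of those cells in the Tlr8 values was not tested. With the macrophage list as a covariate, which also carries lymphoid content through Marco and Timd4, the Tlr8 difference was 1.33.

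Tlr3 (chromosome 8, 45395665 to 45411080, minus strand), which signals through Ticam1 and is found in many cell types outside the immune system, was the most even member among the WT libraries. It stood at 6.55, 6.56 and 6.83 TPM there and at 11.99, 10.9 and 9.02 TPM in the Tumor libraries. Every Tumor library lay above every WT library. The means of 6.65 ± 0.159 and 10.6 ± 1.503 TPM (SD, n = 3) differed 1.60-fold, by 0.60 on the log2(TPM + 1) scale (SE 0.19). The difference was 0.36 above the median of all genes, and 0.40 in itself with median-ratio factors. It was 0.58 with the macrophage list as a covariate. Gm45542 overlaps Tlr3 on the opposite strand, and the sample titles carry the words forward strand. Whether the counting used strand is not stated, so the Tlr3 values are uncertain by any reads of that partner.

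Tlr9 (chromosome 9, 106222598 to 106226883, plus strand) varied widely inside both groups. It stood at 7.68, 2.47 and 1.25 TPM in the WT libraries and at 2.52, 13.8 and 15.3 TPM in the Tumor libraries. The lymphoid-poor library was the lowest of its group both times, and Tumor replicate 1 lay below WT replicate 1. WT replicate 2, although lymphoid-rich, was also well below WT replicate 1. The means were 3.80 ± 3.41 and 10.6 ± 6.99 TPM (SD, n = 3), with a log2 difference of 1.22 (SE 0.77). This was 1.501 among the lymphoid-rich libraries, 0.64 in the lymphoid-poor pair, 1.93 without Tumor replicate 1 and 0.79 without WT replicate 3. With the macrophage list as a covariate it was 0.35. The B cell gene Cd79a stood beside it at 277, 235 and 0.775 TPM and at 1.71, 449 and 712 TPM, and Siglech, which marks plasmacytoid dendritic cells, at 21.2, 26.5 and 1.05 TPM and at 2.52, 27.9 and 32.1 TPM. Over the whole lists, 8 of 9 B cell markers and 5 of 8 markers of plasmacytoid dendritic cells were lowest of their group in both lymphoid-poor libraries, while Ebf1, Tcf4 and Il3ra were highest there. Their part in the Tlr9 values was not tested beyond the covariate fits, and with the B cell list the difference was 0.95.

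The makeup of the endosomal set therefore shifted from library to library. The 4 receptors together summed to 21.5, 13.5 and 16.1 TPM in the WT libraries and to 34.8, 37.7 and 41.9 TPM in the Tumor libraries. Tlr7 held 25.0%, 27.6% and 22.9% of that sum in the WT libraries and 30.6%, 29.6% and 39.8% in the Tumor libraries. The ratio of Tlr7 to Tlr9 ran from 0.699 to 2.94 in the WT libraries and from 0.808 to 4.23 in the Tumor libraries, and was highest in the lymphoid-poor library of each group.

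Unc93b1 (chromosome 19, 3935186 to 3949340, plus strand), without which the endosomal receptors stay in the endoplasmic reticulum, was by far the most abundant member. It stood at 180, 156 and 105 TPM in the WT libraries and at 208, 260 and 306 TPM in the Tumor libraries. The groups did not overlap, and the lowest library of each group was again the lymphoid-poor one. The means of 147 ± 38.0 and 258 ± 49.2 TPM (SD, n = 3) differed 1.75-fold, by 0.82 on the log2(TPM + 1) scale (SE 0.27). With the macrophage list as a covariate the difference was 0.38. Unc93b1 exceeded Tlr7 by 28.6 to 41.8 times in TPM in the WT libraries and by 18.4 to 23.3 times in the Tumor libraries, so that the receptor differed by more than its chaperone.

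**Figure D1:**
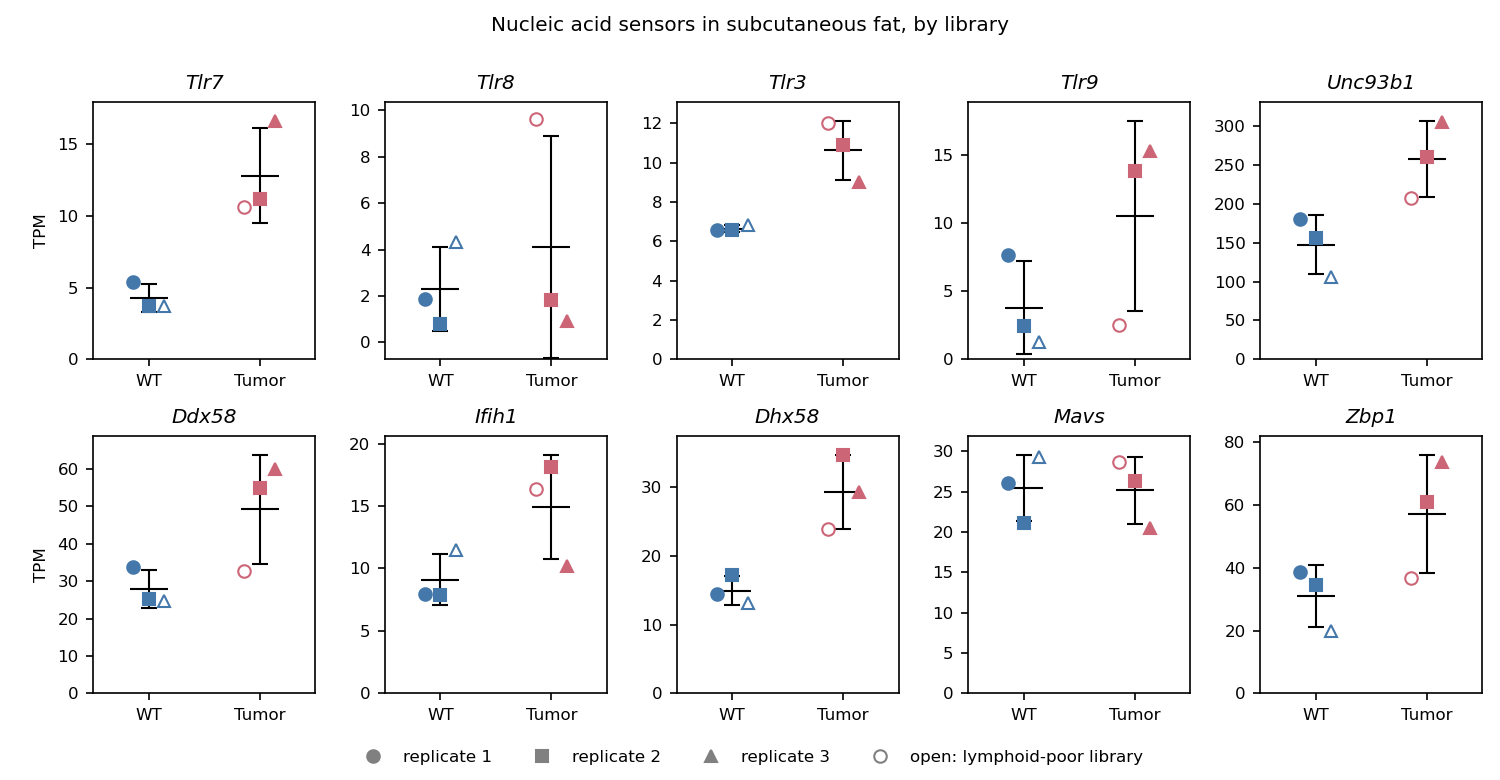
TPM of each sensor gene (vertical axes, 1 scale per panel) in the 3 WT and 3 Tumor libraries, with the mean and SD of each group as a line and bar, replicate number as the symbol, and open symbols for the 2 lymphoid-poor libraries. Tlr7, Tlr3, Unc93b1 and Dhx58 show no overlap of the groups, whereas those of Tlr8 and Mavs overlap, with 2 Tumor libraries inside the WT range of each.

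Ddx58 (chromosome 4, 40203773 to 40239828, minus strand) stood at 33.8, 25.2 and 24.6 TPM in the WT libraries and at 32.6, 54.9 and 59.9 TPM in the Tumor libraries. Tumor replicate 1 lay just below WT replicate 1, so the groups overlapped. The means of 27.9 ± 5.14 and 49.1 ± 14.6 TPM (SD, n = 3) differed 1.76-fold, by 0.76 on the log2(TPM + 1) scale (SE 0.28). The difference was 0.95 among the lymphoid-rich libraries and 0.39 in the lymphoid-poor pair.

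Ifih1 (chromosome 2, 62595798 to 62646255, minus strand), which prefers long double-stranded RNA, did not follow Ddx58 across libraries. It stood at 7.99, 7.87 and 11.5 TPM in the WT libraries and at 16.4, 18.2 and 10.2 TPM in the Tumor libraries. Tumor replicate 3, the highest library for Ddx58, was the lowest of its group for Ifih1 and lay below WT replicate 3. The means were 9.11 ± 2.04 and 14.9 ± 4.18 TPM (SD, n = 3), with a log2 difference of 0.64 (SE 0.28). This difference was 0.83 with the macrophage list as a covariate. The ratio of Ifih1 to Ddx58 ran from 0.237 to 0.465 in the WT libraries and from 0.170 to 0.503 in the Tumor libraries, a range that covered both groups.

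Dhx58 (chromosome 11, 100694884 to 100704271, minus strand), a helicase of the same family that lacks their signalling domains, stood at 14.5, 17.2 and 13.2 TPM in the WT libraries and at 23.9, 34.7 and 29.3 TPM in the Tumor libraries. The groups did not overlap. Its means of 15.0 ± 2.06 and 29.3 ± 5.40 TPM (SD, n = 3) differed 1.96-fold, by 0.92 on the log2(TPM + 1) scale (SE 0.20), and leaving out a library gave 0.79 to 1.05. With the macrophage list as a covariate it was 0.63. Dhx58os overlaps this gene on the opposite strand, and its reads carry the same uncertainty as those of Tlr3.

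Mavs (chromosome 2, 131234063 to 131248025, plus strand), the adaptor to which Ddx58 and Ifih1 both dock, had the smallest difference of the 10. It stood at 26.1, 21.2 and 29.3 TPM in the WT libraries and at 28.7, 26.3 and 20.5 TPM in the Tumor libraries. The means of 25.5 ± 4.07 and 25.2 ± 4.19 TPM (SD, n = 3) differed by -0.02 on the log2(TPM + 1) scale (SE 0.21), and by -0.23 with median-ratio factors. The sign of this difference changed when WT replicate 1, WT replicate 3 or Tumor replicate 3 was left out and with either covariate. The ratio of Ddx58 to Mavs in TPM ran from 0.842 to 1.30 in the WT libraries and from 1.14 to 2.92 in the Tumor libraries, with overlap.

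Zbp1 (chromosome 2, 173206612 to 173218923, minus strand), which can start necroptosis through Ripk3, stood at 38.6, 34.4 and 19.9 TPM in the WT libraries and at 36.9, 60.9 and 73.9 TPM in the Tumor libraries. WT replicate 1 lay above Tumor replicate 1, so the groups overlapped. The means of 31.0 ± 9.82 and 57.3 ± 18.8 TPM (SD, n = 3) differed 1.85-fold, by 0.86 on the log2(TPM + 1) scale (SE 0.36). The difference was 0.86 among the lymphoid-rich libraries and also 0.86 in the lymphoid-poor pair, but 0.27 with the macrophage list as a covariate.

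The promoters of Ddx58 and Ifih1 are shown because both hold the core of the element that interferon regulatory factors bind, searched as GAAA, any 2 bases and GAAA again, on both strands. RefSeq windows of 300 bases on GRCm38.p6, from 250 before the start of the gene to 50 after it, were at hand for 6 of the 10 genes, namely Tlr3, Tlr8, Tlr9, Ddx58, Ifih1 and Mavs. Of these 6 windows, 2 held the motif, against 3.44% of all 32851 windows. Capitals mark the match, which covers bases 253 to 262 of the Ddx58 window, read on the other strand, and bases 283 to 292 of the Ifih1 window. In both the match lies just after the start of the gene. The Ddx58 window is chr4:40239776-40240075 and the Ifih1 window chr2:62646206-62646505, both on the minus strand and written 5′ to 3′ along the gene.
Ddx58: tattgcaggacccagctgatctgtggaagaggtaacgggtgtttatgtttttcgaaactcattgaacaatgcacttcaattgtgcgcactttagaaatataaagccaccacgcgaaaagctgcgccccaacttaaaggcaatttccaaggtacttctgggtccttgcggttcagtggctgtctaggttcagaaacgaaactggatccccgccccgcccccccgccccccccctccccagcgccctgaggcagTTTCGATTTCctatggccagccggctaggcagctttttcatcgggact
Ifih1: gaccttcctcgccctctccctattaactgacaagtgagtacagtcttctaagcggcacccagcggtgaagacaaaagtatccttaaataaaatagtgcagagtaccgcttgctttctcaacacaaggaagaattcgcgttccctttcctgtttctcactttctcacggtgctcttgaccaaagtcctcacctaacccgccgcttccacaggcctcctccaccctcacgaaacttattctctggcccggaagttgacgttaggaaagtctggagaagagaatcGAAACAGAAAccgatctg
A further motif, TTCNNNGAA, which reads the same on both strands in its fixed bases and is typical of STAT binding, was found in 1 of the 6 windows, that of Tlr8, and in 8.3% of all windows. A match is a run of letters and not a measured site.

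**Figure D2:**
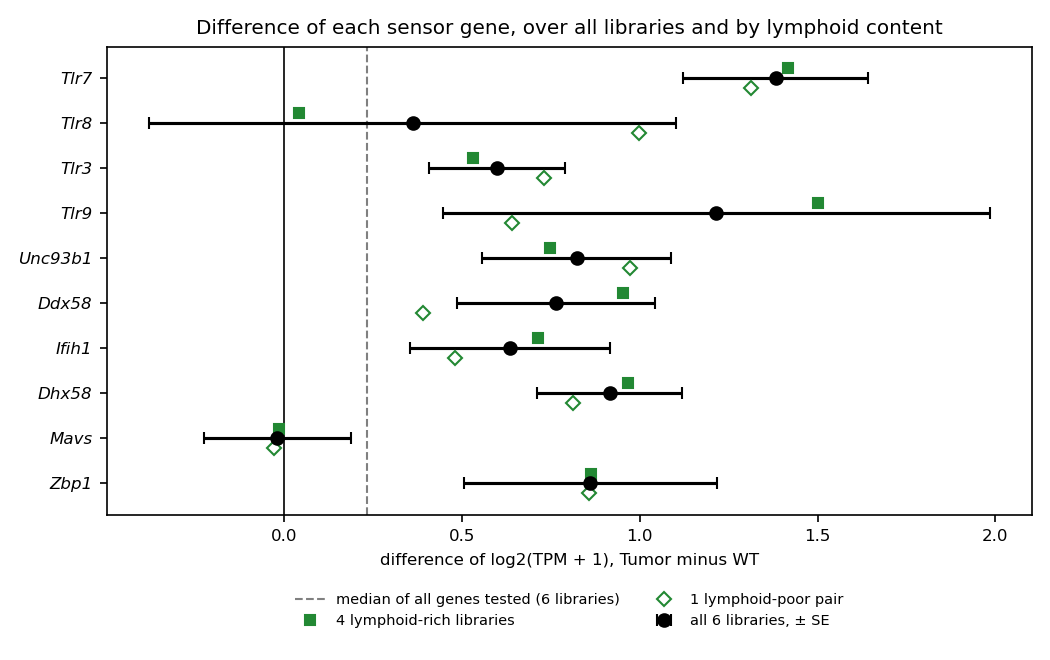
Difference of each sensor gene between Tumor and WT libraries on the log2(TPM + 1) scale (horizontal axis), over all 6 libraries with the limma SE (black), among the 4 lymphoid-rich libraries (squares) and between the lymphoid-poor pair (open diamonds, 1 library against 1). The dashed line is the median of all genes tested, 0.23, and Tlr7 has the largest difference over all 6 libraries, with its 3 values at 1.38, 1.42 and 1.31.

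Set side by side, 9 of the 10 genes had a positive difference and 1, Mavs, a negative one, and the median over the 10 was 0.79 against 0.23 over all genes tested. The groups did not overlap for 4 of the 10, namely Tlr3, Tlr7, Unc93b1 and Dhx58, each higher in the Tumor libraries, where 11.8% of all tested genes were higher without overlap and 3.23% lower. Since the genes were chosen with this contrast known, nothing is read from that share. With median-ratio factors the same 4 genes did not overlap, and the shares over all genes were then 3.79% higher and 10.2% in either direction. Without WT replicate 1, or without Tumor replicate 1, Tlr9, Ddx58 and Zbp1 joined them, to make 7. The share of all tested genes that were higher without overlap was then 23.7% and 34.3%. Among the 4 lymphoid-rich libraries 8 of the 10 did not overlap, all but Tlr8 and Mavs, and 40.9% of all tested genes were then higher without overlap. Relative to the median of all genes, the difference of 9 of the 10 lay above it.

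Levels per length could be compared between the genes, because TPM corrects for transcript length. In the WT libraries the order of mean TPM was Unc93b1, Zbp1, Ddx58, Mavs, Dhx58, Ifih1, Tlr3, Tlr7, Tlr9 and Tlr8. There Zbp1, Ddx58 and Mavs overlapped with their neighbours in that order, and so did Tlr7, Tlr9 and Tlr8, whereas the other neighbours did not overlap. In the Tumor libraries the order was Unc93b1, Zbp1, Ddx58, Dhx58, Mavs, Ifih1, Tlr7, Tlr3, Tlr9 and Tlr8. Tlr7 thus passed Tlr3 and Dhx58 passed Mavs. Only Unc93b1 against Zbp1, and Mavs against Ifih1, did not overlap with their next neighbour there. The ratio of Tlr7 to Tlr3, taken within each library, averaged 0.643 ± 0.154 in the WT libraries and 1.25 ± 0.519 in the Tumor libraries (SD, n = 3), and in Tumor replicate 1 it was still 0.888.

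**Figure D3:**
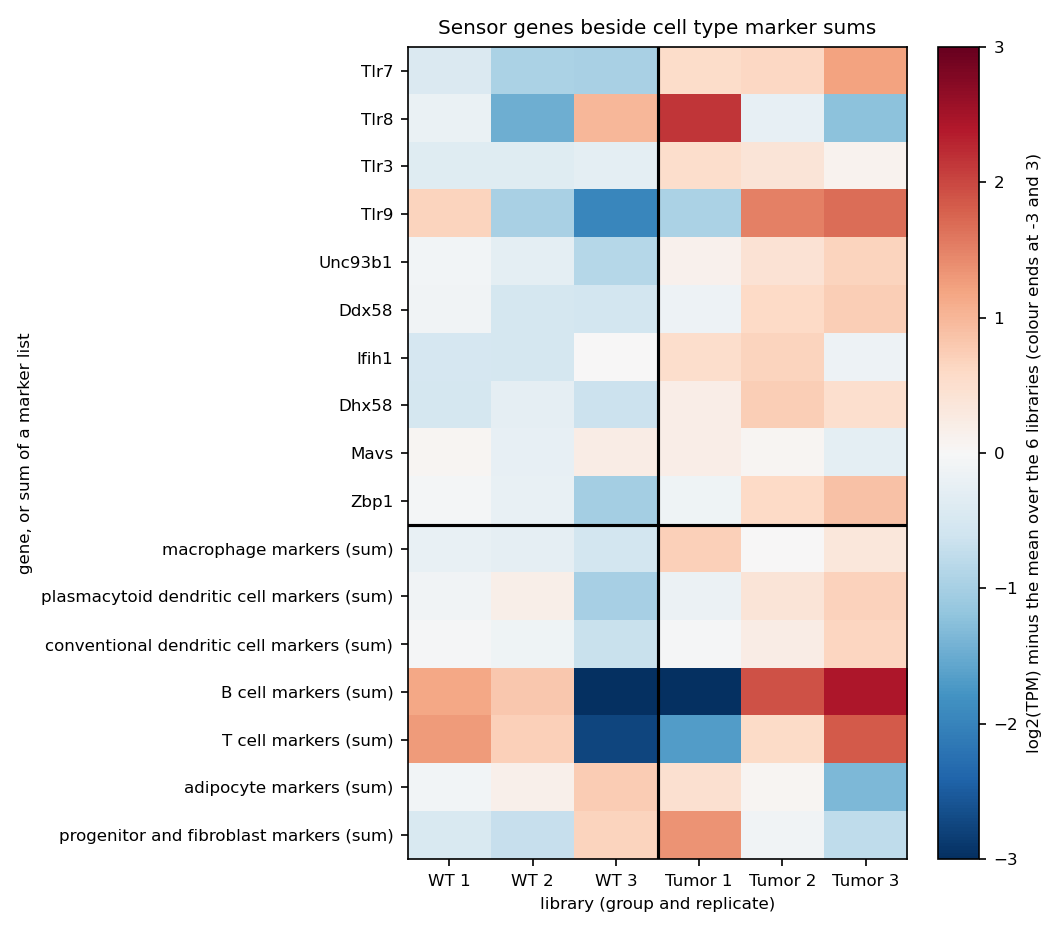
Each of the 10 sensor genes (upper rows) and the summed TPM of 7 cell type marker lists (lower rows) in the 6 libraries, as log2(TPM) minus the mean of that row, from blue (low) to red (high), with colours ending at -3 and 3. Tlr9 is lowest of its group in WT replicate 3 and in Tumor replicate 1, where the B cell sum is low, Tlr8 is highest of its group there, and Tlr7 is above its mean in the 3 Tumor libraries and below it in the 3 WT libraries.

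Genes whose pattern over the 6 libraries was most like that of Tlr7 were sought outside the sensor genes followed here. The other sensor genes were left out of this comparison, so it cannot show whether any of them was closer to Tlr7. Among 10922 tested genes with a mean of at least 5 TPM, the 8 with the highest Pearson r in log2(TPM + 1) were Zfp451, Tpm4, Pds5b, Tyw1, Ephx1, Flna, Ensa and Wsb1, with r from 0.992 to 0.9985. The pathway lists held 0 of these 8, and list genes with a mean below 5 TPM were not compared. Flna, which crosslinks actin filaments, stood at 200, 158 and 159 TPM in the WT libraries and at 251, 258 and 320 TPM in the Tumor libraries. Ephx1, a microsomal epoxide hydrolase, stood at 52.2, 49.5 and 47.3 TPM and at 70.8, 73.1 and 82.8 TPM. Their differences of 0.68 and 0.59 were smaller than that of Tlr7. This likeness is a description over 6 points that differ in lymphoid content and group, and it was unstable. Of the 8 names, 1 to 4 remained among the closest 8 when a library was left out, and 3 with median-ratio factors.

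The wider machinery was read from 8 lists of 123 genes, of which 122 had a row and 109 were tested. No gene of the lists passed limma, 0 higher and 0 lower, their lowest adjusted p being 0.737. Without adjustment 24 genes were higher and 0 lower at p below 0.05, where 3.75% and 1.7% of all tested genes were so. Of the 109, 32 (29.4%) were higher without overlap and 0 lower without overlap, where 11.8% and 3.23% of all tested genes were so. The lists were chosen with earlier results of these data known, so nothing is read from these shares. Most genes named below are those of smallest p in this contrast. The median difference over the 109 was 0.45. With median-ratio factors the medians of the lists were lower. They were 0.16 for trafficking, 0.20 for adaptors and kinases, 0.11 for RIG-I signalling and 0.32 for DNA sensing. Other RNA sensors had 0.48, the Zbp1 partners 0.10, the other Toll-like receptors 0.62 and interferons and cytokines 0.60. With the macrophage list as a covariate the medians were, in that order, 0.44, 0.41, 0.15, 0.19, 0.56, 0.35, 0.36 and -0.745. Negative differences then numbered 2 of 17, 4 of 21, 4 of 19 and 6 of 16 genes, in that order. The other lists had 0 of 13, 1 of 7, 3 of 11 and 4 of 5.

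Of 17 tested genes that carry, cut or supply the endosomal receptors, 0 passed limma, 15 had a positive difference and the median was 0.37. Higher without overlap were 6 of the 17 (11.8% of all tested genes). Cathepsin S (Ctss), a protease that trims the receptors, averaged 212 ± 105 TPM in the WT libraries and 491 ± 114 TPM in the Tumor libraries (SD, n = 3), a log2 difference of 1.34. Slc15a3, a lysosomal transporter of histidine and small peptides, averaged 7.54 ± 4.31 and 22.6 ± 8.27 TPM. Pld4, a lysosomal exonuclease, averaged 81.9 ± 20.5 and 153 ± 33.2 TPM. Hsp90b1, the chaperone gp96 that folds Toll-like receptors, averaged 209 ± 7.26 and 279 ± 30.3 TPM. These 4 did not overlap between the groups, while Slc15a4, the transporter that Tlr7 and Tlr9 signalling needs, stood at 23.8, 20.5 and 11.2 TPM against 19.4, 30.8 and 35.7 TPM and overlapped. With the macrophage list as a covariate the differences of Ctss, Slc15a3 and Pld4 went from 1.34, 1.58 and 0.90 to 0.29, 0.63 and 0.56. That of Slc15a4 went from 0.63 to -0.04, and that of Hsp90b1 from 0.41 to 0.55.

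Of 21 tested adaptors, kinases and factors downstream of the Toll-like receptors, 0 passed limma, 20 had a positive difference and the median was 0.41. Higher without overlap were 6 of the 21 (11.8% of all tested genes). Irf7, the factor that drives interferon genes after Tlr7 and Tlr9 signalling and is itself induced by interferon, stood at 36.3, 70.2 and 38.9 TPM in the WT libraries and at 89.2, 117 and 124 TPM in the Tumor libraries. The groups did not overlap, and the log2 difference was 1.22 (SE 0.30, limma adjusted p = 0.737). Myd88, the adaptor of Tlr7, Tlr8 and Tlr9, averaged 29.6 ± 3.19 and 39.9 ± 4.91 TPM (SD, n = 3), and Tab2, a scaffold of the kinase TAK1, 30.4 ± 2.86 and 40.8 ± 4.66 TPM. Irf5 averaged 30.4 ± 12.7 and 59.2 ± 20.0 TPM with overlap, and was lowest in the lymphoid-poor library of each group. Ticam1, the adaptor of Tlr3, averaged 7.50 ± 1.38 and 9.42 ± 1.71 TPM and overlapped.

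Of 19 tested genes around Ddx58, Ifih1 and Mavs, 0 passed limma, 17 had a positive difference and the median was 0.33. Higher without overlap were 3 of the 19 (11.8% of all tested genes). Trim25, a ubiquitin ligase of the RIG-I pathway, stood at 27.0, 26.4 and 26.3 TPM in the WT libraries and at 44.3, 38.8 and 40.9 TPM in the Tumor libraries. It was even within each group, and the groups were apart by 0.62 on the log2(TPM + 1) scale (SE 0.14, limma adjusted p = 0.737), or 0.40 with median-ratio factors. Tbk1, the kinase that activates Irf3, averaged 28.4 ± 5.75 and 45.3 ± 8.49 TPM (SD, n = 3), and the helicase Ddx60 3.85 ± 0.257 and 6.12 ± 0.522 TPM, both without overlap. Trim14 averaged 16.4 ± 4.73 and 25.2 ± 5.84 TPM. Irf3 itself averaged 136 ± 21.5 and 174 ± 46.7 TPM and overlapped.

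Cytosolic DNA sensing lies outside the 10. Of its 16 tested genes 0 passed limma, 15 had a positive difference and the median was 0.54, and 0 were without overlap, where 11.8% of all tested genes were higher so. Of the 16, 6 had a negative difference with the macrophage list as a covariate, and the median was then 0.19. Cgas, the enzyme that turns DNA into a cyclic dinucleotide, averaged 2.00 ± 0.730 and 2.62 ± 0.288 TPM (SD, n = 3). Sting1, its receptor, listed under the older symbol Tmem173, stood at 113, 79.2 and 31.4 TPM in the WT libraries and at 44.6, 111 and 179 TPM in the Tumor libraries, lowest in the lymphoid-poor library of each group. Trex1, a DNase, averaged 29.1 ± 8.14 and 47.6 ± 11.3 TPM, Samhd1, which depletes nucleotides, 108 ± 36.0 and 206 ± 77.0 TPM, and Ifi203 49.7 ± 19.5 and 94.0 ± 44.7 TPM. Trim56, a ubiquitin ligase that acts on Sting1, stood at 11.5, 8.56 and 9.93 TPM and at 10.1, 16.4 and 18.1 TPM, with overlap. With the macrophage list as a covariate the differences of Trex1, Samhd1 and Ifi203 went from 0.70, 0.92 and 0.86 to 0.27, 0.44 and 0.12. Those of Cgas and Sting1 went from 0.30 and 0.55 to -0.20 and -0.48, and that of Trim56 from 0.50 to 0.55.

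Of 13 tested other RNA sensors and modifiers, 0 passed limma, 13 had a positive difference, 10 were higher without overlap (11.8% of all tested genes) and the median was 0.68. Eif2ak2, the kinase PKR that halts translation on double-stranded RNA, stood at 9.66, 8.61 and 9.71 TPM in the WT libraries and at 14.9, 19.2 and 13.5 TPM in the Tumor libraries. Oas1a, which makes the second messenger of RNase L, averaged 13.8 ± 4.90 and 25.2 ± 4.69 TPM (SD, n = 3). Oasl2 averaged 23.6 ± 4.55 and 47.7 ± 15.7 TPM, and Ifit1, which binds uncapped RNA ends, 8.28 ± 3.92 and 20.5 ± 5.41 TPM. Many of these genes are known interferon targets, which they share with Dhx58, Ifih1, Ddx58 and Zbp1.

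Among 7 tested partners of Zbp1 in cell death, 0 passed limma and the median was 0.31. Higher without overlap were 2 of the 7, where 11.8% of all tested genes were so. Casp8 averaged 41.3 ± 10.3 and 63.3 ± 10.5 TPM (SD, n = 3) with overlap. Nlrp3, an inflammasome sensor, averaged 0.626 ± 0.217 and 1.42 ± 0.533 TPM, and Ripk1 17.3 ± 0.940 and 20.9 ± 2.39 TPM, both without overlap. Fadd averaged 5.11 ± 0.816 and 6.78 ± 0.961 TPM. Ripk3, the kinase that Zbp1 engages, stood at 27.2, 24.7 and 9.17 TPM in the WT libraries and at 17.5, 19.5 and 36.0 TPM in the Tumor libraries, and these values overlapped.

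Of 11 tested other Toll-like receptor genes and cofactors, 0 passed limma, 11 had a positive difference and the median was 0.82. Higher without overlap were 5 of the 11 (11.8% of all tested genes). Tlr13, an endosomal sensor of bacterial ribosomal RNA that also depends on Unc93b1, stood at 1.54, 1.23 and 0.859 TPM in the WT libraries and at 9.43, 3.30 and 4.23 TPM in the Tumor libraries. The groups did not overlap, and they differed by 1.49 in log2(TPM + 1) (SE 0.39, adjusted p = 0.737 with limma), although Tlr13 was highest in Tumor replicate 1 and Tlr7 in Tumor replicate 3. Ly96, the partner of Tlr4, averaged 14.8 ± 2.09 and 23.2 ± 0.319 TPM (SD, n = 3). Tlr6 averaged 1.42 ± 0.649 and 3.41 ± 0.704 TPM, and Ly86, the partner of Cd180, 50.1 ± 19.9 and 102 ± 33.9 TPM.

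The interferons that these pathways are known to switch on were hardly measured. Of 9 type I and type III interferon genes in the list, 8 were listed at 0 in all 6 libraries, Ifnb1 among them, and Ifnk was listed at 0.242 TPM in Tumor replicate 1 and at 0 elsewhere. Sequencing depth is unknown for this table, so no upper limit can be set on them. Of the 5 genes of this list that were tested, 0 passed limma and 0 were without overlap, where 11.8% of all tested genes were higher so. Cxcl10, a chemokine induced by interferon, stood at 7.98, 23.2 and 1.58 TPM in the WT libraries and at 10.7, 28.7 and 72.3 TPM in the Tumor libraries, and these overlapped. Tnf averaged 5.21 ± 4.07 and 8.12 ± 4.81 TPM (SD, n = 3), Il1b 3.79 ± 2.92 and 14.5 ± 21.1 TPM, and Il12b 1.96 ± 1.64 and 2.34 ± 2.20 TPM. The Il1b mean of the Tumor libraries rests on Tumor replicate 3, at 38.8 TPM against 1.34 and 3.26 TPM, and its log2 difference turned negative without that library. The sign also changed in 4 of the alternatives for Il12b, in 2 for Tnf and in 1 for Cxcl10. Of the 5 tested genes, 4 had a negative difference with the macrophage list as a covariate.

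**Figure D4:**
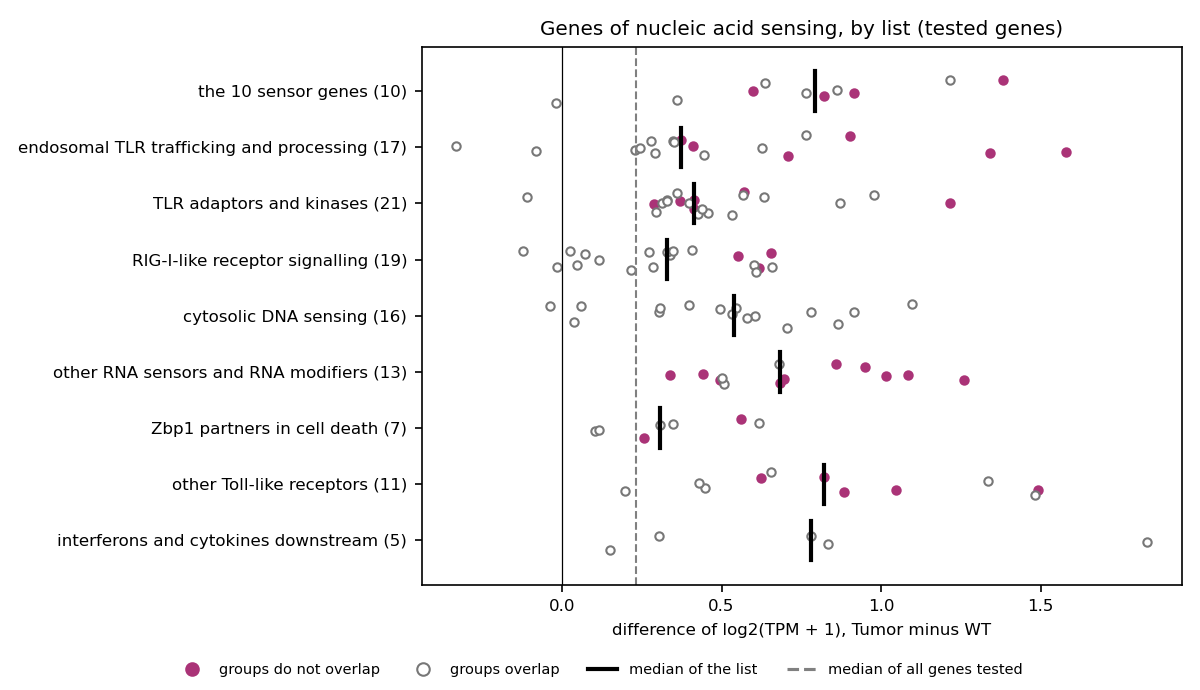
Difference of log2(TPM + 1) between Tumor and WT libraries (horizontal axis) for the 10 sensor genes and for the tested genes of each list, 1 point per gene, filled where the groups do not overlap, with the list's median as a bar and the median of all genes tested, 0.23, as a dashed line. The medians run from 0.31 for the Zbp1 partners to 0.82 for the other Toll-like receptors. The DNA sensing list and the list of interferons and cytokines have no filled point.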

How the data were processed

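The values that the authors deposited are TPM, in a single table for all 6 libraries: although the table is called raw counts, they are not whole and add up to 1000000 in each column. GRCm38.p6 is the build, and DESeq2 a tool of unstated role, per the submitters' processing notes. Aligner, quantifier, annotation and library totals are likewise not stated. Of the 36144 rows, 26 carry date-like names left by a spreadsheet, and 2 names that stand on more than 1 row were left out.

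Here the TPM were taken as log2(TPM + 1), and limma 3.58.1 (R 4.3.3) was fitted with group as the only term, its trend and robust options on, over the 14140 genes that reached 1 TPM in 3 or more libraries. Benjamini-Hochberg adjustment covered all of them, at 0.05. This scale understates changes of low genes, and fold values are ratios of mean TPM. The fit was tested on simulated data. With 3 libraries a group, exact permutation p-values start at 0.1, so none is given. Marker covariates were means of log2(TPM + 1) over a list, so that of the macrophage list also carried lymphoid content through Marco and Timd4.

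The 10 genes, pathway lists and marker lists were chosen with earlier results of these data known. Named from each pathway list were the 4 tested genes of smallest p, and core signalling genes. Beside them stand the 8 genes closest to Tlr7 outside the 10. Coordinates are from GENCODE M21. Figures used matplotlib 3.10.9.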

Additional observations from a re-analysis of the deposited data

How the results depend on the processing

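The count of genes passing limma over the whole table, and over the pathway lists, stayed at 0 under the other scalings, pseudocounts of 0.1 and 0.5, filters, moderation settings and left-out libraries that were run, with 1 exception. With the B cell list as a covariate 1 gene passed, Gm11594, which is in no list. The median difference of the 10 sensor genes was 0.79, moved to 0.58 with median-ratio factors, and lay between 0.73 and 1.00 with any single library left out. The members without overlap, 4 over all libraries, ran from 4 to 7 when a library was left out and were 8 among the 4 lymphoid-rich libraries. The share of all tested genes higher without overlap was 11.8% over all libraries, 14.3% to 34.3% with a library left out and 40.9% among those 4. Of the 8 genes most like Tlr7 outside the sensor genes, 3 remained with median-ratio factors and 1 to 4 without a library. The promoter motif count of 2 was 1 with TTCNNNGAA in its place. Of 130 member differences over 13 alternatives, the replicate block aside, 125 moved by less than the spread between replicates and 5 by more. These were Tlr3 with both scalings, and Unc93b1, Dhx58 and Zbp1 with the macrophage covariate. Leaving out 1 library of 3 cannot move a difference by more than this spread. Those alternatives could therefore not be among the 5, and the count of 125 is no measure of stability. It also includes changes of sign, in 2 of the alternatives for Tlr8 and in 5 for Mavs.

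Replicate numbers share only a number between the groups. Same-numbered libraries deviated from their group means with correlations of -0.758, 0.205 and -0.843. The replicate block cannot move a difference here, with 1 library of each group per number, so the median difference of the members is 0.79 with it by construction. With the block 0 genes passed and 182 genes had an unadjusted p below 0.05, against 770 without it. That count was 198 with the macrophage covariate, 1797 with the B cell covariate and 1229 among the lymphoid-rich libraries. Leaving out Tumor replicate 2 gave 352, and leaving out Tumor replicate 1 gave 1509, the extremes of the 6. Read depth is unknown, so counting error in low genes such as Tlr8 could not be set.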
